A study of Mus musculus with 80 samples.

Results

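The genes described here encode 10 factors that write or read methylation on lysine 9 of histone H3 (H3K9), or assist the enzymes that write it. They were taken by symbol from a table of RNA-seq levels that holds 25965 rows for mouse embryonic stem cells (ESCs). The 10 genes occupy 11 rows, because Atf7ip is listed as a long row and as a short row just downstream of it, and all 10 genes were among the 12306 rows tested. The cells were the wild-type ESC line E14, grown either in serum medium or in 2i, both with leukemia inhibitory factor (LIF). The 2i medium is serum-free and holds small molecules that block the kinases MEK and GSK3. RNA-seq covered 12 libraries, 3 each from serum and from 6, 24 and 72 h in 2i. ChIP-seq for the dimethylated form of the mark (H3K9me2) covered 6 bound libraries, 2 each from serum, 24 h in 2i and long-term 2i (LT2i), with 1 input library per condition. All these cells came from 1 line without any introduced allele, and the labels give no length for LT2i. RNA at 24 h can be set beside H3K9me2 at 24 h, whereas 72 h has RNA only and LT2i has H3K9me2 only.

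Methylation of H3K9 is a mark of silent chromatin. EHMT2 (G9A) and EHMT1 (GLP) work as a pair that places the dimethyl mark over gene-rich chromatin, and the zinc-finger protein WIZ joins that pair on chromatin. SETDB1 trimethylates H3K9 at retroelements and imprinted regions, where the co-repressor TRIM28 (KAP1) brings it through KRAB zinc-finger proteins and ATF7IP stabilises it. SUV39H1 and SUV39H2 trimethylate H3K9 in the heterochromatin around centromeres. The HP1 proteins, among them CBX5 (HP1 alpha) and CBX1 (HP1 beta), bind the methylated tail through their chromodomain. In ESCs the mark is also read by UHRF1, which brings the maintenance DNA methyltransferase to newly copied DNA, and the series asked how the mark and its enzymes behave while DNA methylation is lost in 2i.

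The sequences upstream of Ehmt2, Ehmt1 and Trim28 are shown because Ehmt2 was the one member that passed the test at 6 h, Ehmt1 is its partner, and Trim28 was the most abundant member. Each is read 5′ to 3′ toward the start of the gene (RefSeq, GRCm38.p6), without bases that any row of the expression table covers, and capitals mark the GC-box letters GGGCGG or their complement CCGCCC.
Ehmt2, chr17:34898266-34898468, plus strand: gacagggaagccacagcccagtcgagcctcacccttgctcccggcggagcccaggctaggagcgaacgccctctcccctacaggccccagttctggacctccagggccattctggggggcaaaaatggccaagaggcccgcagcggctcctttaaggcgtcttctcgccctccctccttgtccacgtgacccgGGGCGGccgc
Ehmt1, chr2:24919610-24919859, minus strand: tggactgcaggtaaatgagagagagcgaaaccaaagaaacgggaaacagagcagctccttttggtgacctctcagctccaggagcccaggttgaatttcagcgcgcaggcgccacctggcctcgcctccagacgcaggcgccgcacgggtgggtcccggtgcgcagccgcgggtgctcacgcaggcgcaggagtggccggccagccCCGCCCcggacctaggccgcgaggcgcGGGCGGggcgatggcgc
Trim28, chr7:13023902-13024151, plus strand: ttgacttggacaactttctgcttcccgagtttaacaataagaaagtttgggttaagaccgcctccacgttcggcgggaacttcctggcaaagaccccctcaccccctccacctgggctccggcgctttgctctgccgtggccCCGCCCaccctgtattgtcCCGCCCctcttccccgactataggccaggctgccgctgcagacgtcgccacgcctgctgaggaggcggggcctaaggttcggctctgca

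Windows of 250 bases upstream of the start were found for all 10 genes. All 10 held GGGCGG on either strand, which 32.7% of the 32817 windows in the reference table held. CCAAT was in 5 of the 10 windows (33.8% of all windows), and the E-box letters CACGTG were in 2, those of Ehmt2 and Cbx5 (6.02% of all windows). TATAAA and the E2F letters TTTCCCGC were in 0 of the 10 windows, against 12.4% and 0.893% of all windows, and so was the palindrome of NRF1 (0.777% of all windows). Matches were counted on both strands. The number of CpG dinucleotides ran from 11 at Suv39h1 to 27 at Suv39h2, where the median window held 6. No motif was tested against the changes in RNA.

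Pluripotency markers were high in every library. Their summed level on the log2 scale, over Pou5f1, Nanog, Sox2, Zfp42, Esrrb and Klf4, was 9.71 to 9.83 in serum and 9.99 to 10.40 at 72 h. Within this list Nanog (1.55 and 1.72 against serum at 24 and 72 h), Klf4 (0.44 and 1.35) and Esrrb (0.58 and 0.95) were higher. Zfp42 was lower at 6, 24 and 72 h (-0.49, -0.81 and -0.67) and Sox2 at 6 h (-0.85), all past the threshold. Pou5f1 passed at no time. Markers of feeder fibroblasts (5 genes, 2 of them above the filter) summed to 2.92 to 3.28 in serum and 2.14 to 2.30 at 72 h, and those of primitive endoderm (5 genes, 3 of them above the filter) to 1.92 to 2.10 in serum and 1.73 to 1.94 at 72 h. Within the latter list Dab2 (-1.16 and -1.08 against serum at 24 and 72 h) was lower and Gata4 (0.57 and 0.92) higher. Both were low, at or below 0.92 for Dab2 and 0.32 for Gata4 in every library. Gata4 reached the filter on low values only with libraries of 2i and is given as a description. Of the feeder markers Col1a1 (-0.60 and -0.96) was lower, as was Thy1 at 72 h (-0.46). Trophectoderm markers summed to 3.38 to 3.69 in serum and 5.37 to 5.52 at 72 h, where Tfap2c reached 5.39 and the other 4, including Cdx2, stayed at or below 1.46. Of those others, Hand1 (-2.13), Eomes (-1.75) and Cdx2 (-2.03) lay below serum at 24 h on the log2 scale, and Hand1 also at 72 h (-1.65). What part these markers have in the members' changes was not tested, and in bulk RNA a change in the share of cells cannot be told apart from a change within cells. Of 6 targets of ERK, the kinase downstream of MEK, 5 fell at 6 h and all 6 fell at 24 and 72 h, where 6.48%, 29.1% and 26.5% of all rows were lower. Libraries also differed in how levels depended on the genomic span of a gene. The slope was 0.11 to 0.21 log2 units per 10-fold span in serum and at 6 h, and -0.50, -0.40 and -0.04 in the 3 libraries of 24 h. At 72 h it was 0.07, -0.21 and 0.17, so the 24 h replicates 1 and 2 and the 72 h replicate 2 stood apart, and the members' changes are also given without them.

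In serum the members covered a wide range of levels. Levels are log2 values corrected by the authors for gene length and library depth, so they can be set beside each other between genes. Trim28 lay highest at 8.77 ± 0.08 (SD, n = 3), above 99.6% of tested genes. The HP1 readers Cbx5 (5.86 ± 0.05) and Cbx1 (5.48 ± 0.04) followed, then Setdb1 (4.47 ± 0.12), Ehmt2 (4.45 ± 0.12), Atf7ip (4.18 ± 0.10), Ehmt1 (3.69 ± 0.10), Wiz (2.98 ± 0.17), Suv39h2 (2.71 ± 0.09) and Suv39h1 (2.48 ± 0.06). Setdb1 and Ehmt2 were the only neighbours in this order whose serum libraries overlapped. By 72 h the order had changed below Trim28, and most neighbours overlapped. Ehmt1, the seventh in serum, had dropped to 2.29 ± 0.26 at 72 h, where Suv39h1 alone had a lower mean and the libraries of Ehmt1 overlapped those of Wiz and Suv39h1.

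After transfer to 2i, the RNA of most members fell between 6 and 24 h, and most of these falls were still present at 72 h. At 6 h 1 of the 10 genes was lower and 0 were higher (limma, adjusted p under 0.05 over all tested rows), where 6.48% of all rows were lower and 9.13% higher. At 24 h 7 members were lower and 1 was higher than in serum, where 29.1% of rows were lower and 34.2% higher. At 72 h 7 members were lower and 0 higher, where 26.5% were lower and 25.7% higher. On the log2 scale, the median member changed by -0.05 (6 h), -1.03 (24 h) and -0.97 (72 h), beside 0.01, 0.11 and -0.01 for the median of all tested rows. The 3 comparisons share the same serum libraries.

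**Figure D1:**
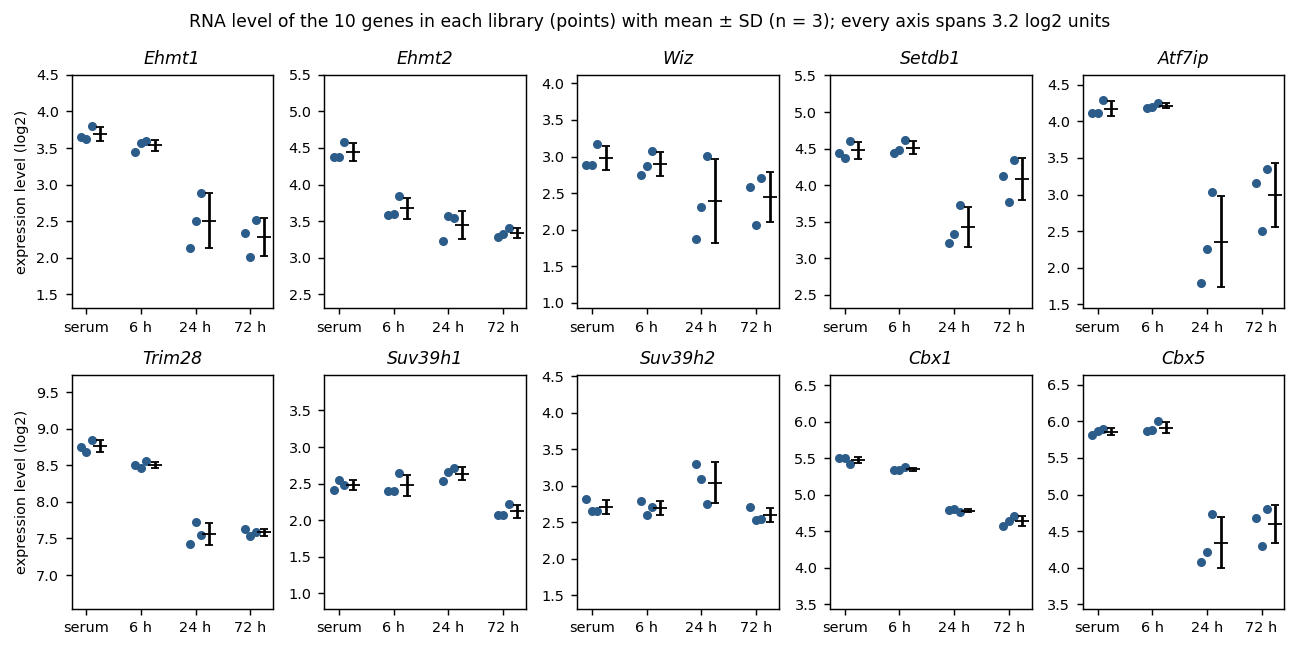
RNA level (log2, vertical axis) of each gene in the 3 libraries of serum and of 6, 24 and 72 h in 2i (horizontal axis), with points for libraries and bars for mean ± SD. Ehmt2 is already lower at 6 h, whereas Ehmt1, Setdb1, Atf7ip, Trim28, Cbx1 and Cbx5 step down between 6 and 24 h, and the 24 h libraries of Atf7ip and Wiz spread widely.

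**Figure D2:**
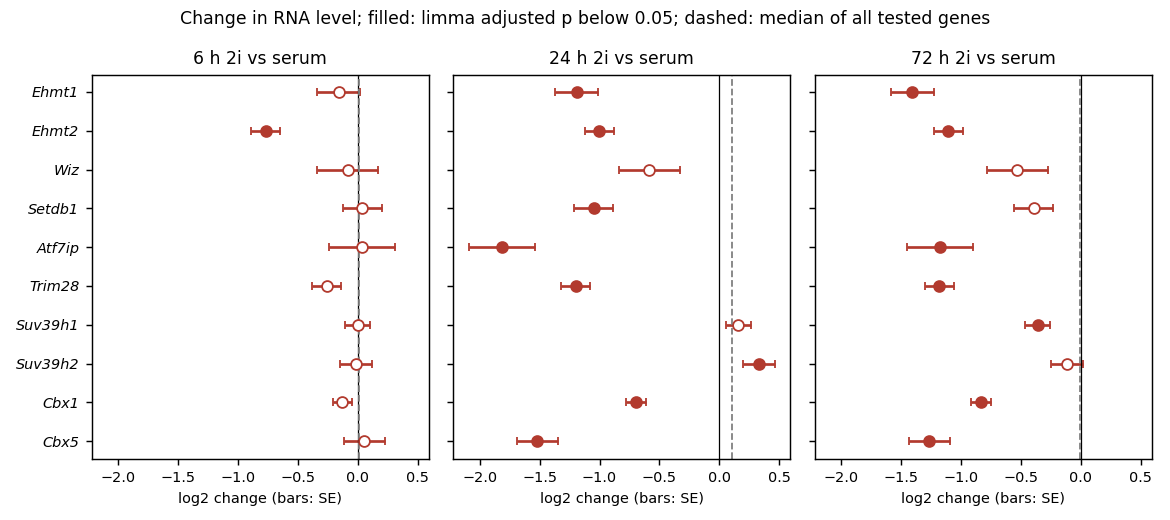
Change in RNA level against serum (log2, horizontal axis) at 6, 24 and 72 h for the 10 genes, with bars for the standard error and filled points for limma adjusted p under 0.05. Only Ehmt2 is filled at 6 h, and 7 genes lie lower than serum with filled points at 24 h and at 72 h.

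Both enzymes of the G9A/GLP pair fell, and Ehmt2 passed the test as early as 6 h. Ehmt2, which encodes G9A (chr17:34898469-34914052, plus strand), measured 4.38, 4.37 and 4.59 in serum and 3.59, 3.60 and 3.84 at 6 h. It measured 3.22, 3.56 and 3.54 at 24 h and 3.28, 3.32 and 3.41 at 72 h. No library of 2i reached the lowest serum library. Ehmt2 fell by 0.77 at 6 h (SE 0.12, adjusted p = 0.00117), that is to 58.6% of the serum level. It fell by 1.00 at 24 h (adjusted p = 4.02e-05) and fell by 1.11 at 72 h (adjusted p = 1.81e-05), both against serum. Between 6 and 24 h Ehmt2 differed by -0.23 (SE 0.12), which did not pass the test (adjusted p = 0.116). With the dependence on gene span removed, as described further on, it passed (-0.33, adjusted p = 0.0365). It also passed with the replicate number as a block. No other member passed at 6 h. The changes of those 9 genes lay between -0.26 for Trim28 (adjusted p = 0.199) and 0.054 for Cbx5.

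Ehmt1, which encodes GLP (chr2:24790769-24919609, minus strand), measured 3.65, 3.63 and 3.80 in serum and 3.45, 3.57 and 3.59 at 6 h. At 24 h it measured 2.13, 2.50 and 2.88, and at 72 h 2.34, 2.01 and 2.52. The libraries of 24 and 72 h all lay below those of serum and of 6 h. The change at 6 h was -0.16 (SE 0.18, adjusted p = 0.692). At 24 h the change was -1.19 (SE 0.18, adjusted p = 0.000185), and the step from 6 to 24 h itself passed the test (-1.03, adjusted p = 0.000683). That step was -0.51 with the dependence on gene span removed (adjusted p = 0.00102) and -0.65 without the 3 libraries of steep span slope (adjusted p = 0.00288). At 72 h the change was -1.41 (adjusted p = 5.8e-05), to 37.7% of serum.

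Wiz, whose zinc-finger protein joins both enzymes on chromatin (chr17:32354055-32389401, minus strand), measured 2.88, 2.89 and 3.17 in serum. It measured 1.87, 2.31 and 3.01 at 24 h and 2.58, 2.06 and 2.71 at 72 h. The 24 h libraries overlapped those of serum and the 72 h libraries did not. The changes were -0.58 (SE 0.26, adjusted p = 0.0643) at 24 h and -0.53 (adjusted p = 0.102) at 72 h, and neither passed. Without the 3 libraries of steep span slope, left out after the data were seen, the 24 h change of Wiz was 0.028 (adjusted p = 0.898) and the 72 h change -0.34 (adjusted p = 0.0449). Without 24 h replicate 3 the change at 24 h was -0.89 (adjusted p = 0.00193), so single libraries decided this call. The 24 h change also passed without 72 h replicate 2 (adjusted p = 0.0494) and with the replicate number as a block (adjusted p = 0.0172). The 72 h change passed with the block (adjusted p = 0.0305), without 24 h replicate 3 (adjusted p = 0.0235) and when only the 6 libraries compared were fitted (adjusted p = 0.0385).

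All 3 genes of the SETDB1 group fell at 24 h. Setdb1 then rose again by 72 h, whereas Trim28 stayed low. Setdb1 (chr3:95323525-95357202, minus strand) measured 4.44, 4.38 and 4.61 in serum and 4.44, 4.48 and 4.61 at 6 h. It then measured 3.21, 3.33 and 3.73 at 24 h and 4.13, 3.77 and 4.34 at 72 h. The 24 h libraries lay below all others. The change at 24 h was -1.05 (SE 0.16, adjusted p = 0.000242). From 24 to 72 h Setdb1 rose by 0.66 (SE 0.16, adjusted p = 0.0113), which left it -0.39 from serum (adjusted p = 0.0641), with libraries that did not overlap those of serum. The row of Setdb1 overlaps the opposite-strand gene Lass2. Overlapping genes cannot be told apart if reads were counted without regard to strand, and the strand setting was not stated in the sources used here. The 72 h change of Setdb1 passed without 72 h replicate 3 (-0.52, adjusted p = 0.0229), without 24 h replicate 3 (adjusted p = 0.0262), with the span trend removed (adjusted p = 0.0308) and with the replicate block (adjusted p = 0.0110). The rise from 24 to 72 h did not pass when only the 6 libraries compared were fitted (adjusted p = 0.0812).

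Atf7ip, the partner that stabilises SETDB1 (chr6:136518851-136607377, plus strand), measured 4.12, 4.11 and 4.30 in serum and 4.19, 4.20 and 4.25 at 6 h. At 24 h it measured 1.79, 2.26 and 3.03, and at 72 h 3.15, 2.51 and 3.34. These 6 libraries lay below all those of serum and 6 h. The change at 24 h was -1.82 (SE 0.28, adjusted p = 0.000197), to 28.4% of serum. At 72 h it was -1.18 (adjusted p = 0.00398), and the difference between 72 and 24 h (0.64, SE 0.28) did not pass (adjusted p = 0.094). Without the 3 libraries of steep span slope the change at 24 h was -1.15 (adjusted p = 7.04e-05). The short downstream row of Atf7ip (chr6:136608859-136610870) changed by -0.30 at 24 h (adjusted p = 0.251) and by -0.31 at 72 h (adjusted p = 0.26), and its libraries overlapped those of serum at both times.

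Trim28, the co-repressor that recruits SETDB1 (chr7:13024152-13031035, plus strand), measured 8.76, 8.68 and 8.85 in serum and 8.50, 8.46 and 8.55 at 6 h. It measured 7.42, 7.72 and 7.55 at 24 h and 7.64, 7.53 and 7.58 at 72 h. The 6 h libraries already lay below those of serum, as they did for Ehmt1, Ehmt2 and Cbx1. Such a separation was lower in 4 of the 10 members at 6 h, where 20.3% of all rows showed it. Trim28 changed by -1.20 at 24 h (SE 0.12, adjusted p = 1.13e-05) and by -1.18 at 72 h (adjusted p = 1.06e-05), to 43.5% and 44.1% of serum. From 6 to 24 h it changed by -0.94. Under quantile normalization Trim28 changed by -1.84 at 24 h (adjusted p = 1.89e-05) and by -1.55 from 6 to 24 h (adjusted p = 0.000106). It was still above every other member at each time.

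Both SUV39 enzymes fell from 24 to 72 h. Suv39h1 (chrX:8061171-8074760, minus strand) measured 2.41, 2.54 and 2.48 in serum and 2.54, 2.66 and 2.71 at 24 h. At 72 h it measured 2.06, 2.07 and 2.22, below all other libraries. The change was 0.16 at 24 h (SE 0.10, adjusted p = 0.201) and -0.36 at 72 h (adjusted p = 0.0126), and from 24 to 72 h Suv39h1 fell by 0.52 (adjusted p = 0.00347). Without serum replicate 2 the change at 72 h was -0.33 (adjusted p = 0.0501). The row overlaps the opposite-strand gene Gm14820.

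Suv39h2 (chr2:3455815-3475031, minus strand) measured 2.82, 2.66 and 2.66 in serum and 3.30, 3.09 and 2.75 at 24 h, and its 24 h libraries overlapped those of serum. It measured 2.71, 2.54 and 2.55 at 72 h. The rise at 24 h was 0.33 (SE 0.13, adjusted p = 0.0489), the one change from serum toward higher levels that passed among the members. It passed by a small margin. Leaving out 24 h replicate 3 kept the call, and leaving out any other single library ended it. Without the 3 libraries of steep span slope it was 0.035 (adjusted p = 0.837), and at 72 h Suv39h2 differed from serum by -0.12 (adjusted p = 0.496). From 24 to 72 h it fell by 0.45, and this call was lost without 24 h replicate 1 or 2 or 72 h replicate 2 or 3 (adjusted p of 0.0946, 0.0816, 0.0526 and 0.0772) and when only the 6 libraries compared were fitted (adjusted p = 0.132). Its row overlaps the opposite-strand genes Dclre1c and Gm13184.

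Both HP1 readers fell. Cbx5, which encodes HP1 alpha (chr15:103191544-103239816, minus strand), measured 5.81, 5.87 and 5.90 in serum and 5.86, 5.88 and 6.00 at 6 h. It measured 4.07, 4.21 and 4.73 at 24 h and 4.68, 4.30 and 4.81 at 72 h. All libraries of 24 and 72 h lay below the lowest serum library, and no group of the later times overlapped those of serum and 6 h. The change was -1.52 at 24 h (SE 0.17, adjusted p = 2.49e-05) and -1.26 at 72 h (adjusted p = 9.56e-05), and the difference between these times (0.26, SE 0.17) did not pass (adjusted p = 0.262).

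Cbx1, which encodes HP1 beta (chr11:96789127-96808640, plus strand), was the most even of the members. It measured 5.50, 5.51 and 5.43 in serum, 5.33, 5.34 and 5.37 at 6 h, 4.79, 4.80 and 4.76 at 24 h and 4.58, 4.64 and 4.71 at 72 h. No 2 groups overlapped. The change was -0.69 at 24 h (SE 0.08, adjusted p = 3.65e-05) and -0.83 at 72 h (adjusted p = 8.36e-06). Cbx3, which encodes the remaining HP1 protein (HP1 gamma) and is no member, lay at 5.20, 5.24 and 5.00 in serum and at 5.33, 5.10 and 5.05 at 24 h. Its change was 0.01 at 24 h (adjusted p = 0.918) and -0.07 at 72 h (adjusted p = 0.65), and the 24 h value changed sign, to -0.05 under quantile normalization and to -0.11 with the dependence on span removed.

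Between time points 7 members passed the test from 6 to 24 h, 6 of them lower (28.0% of all rows were lower) and Suv39h2 higher (31.4% were higher). From 24 to 72 h 3 passed, with Suv39h1 and Suv39h2 lower (15.7% of all rows) and Setdb1 higher (15.8%). Without 24 h replicate 3, 5 members passed from 24 to 72 h, where 6692 of 12306 rows passed. Leaving out the 3 libraries of steep span slope leaves 1 library at 24 h. In that fit Setdb1 changed by 0.50, Suv39h1 by -0.57 and Suv39h2 by -0.12 from 24 to 72 h. Libraries of 72 h lay below those of serum without overlap in 9 of the 10 genes, all but Suv39h2, where 32.3% of all rows did so.

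The dependence on gene span bears on the size of the 24 h changes. With a smooth trend on span removed from each library, the 24 h change of Ehmt1, which has the longest span (129 kb), was -0.67 (adjusted p = 0.000105) in place of -1.19. For Atf7ip (88.5 kb) it was -1.37 in place of -1.82, and for Cbx5 (48.3 kb) -1.28 in place of -1.52. For Trim28, which has the shortest span (6.88 kb), it was -1.44 in place of -1.20, and for Ehmt2 it was -1.10. The 7 members that were lower at 24 h were lower past the threshold in this fit too, and Suv39h2 was not called (0.27, adjusted p = 0.0871). The same 7 were called lower without the 3 libraries of steep span slope, which leaves 1 library at 24 h that is assumed to vary like the other groups. Their 24 h changes were then -0.81 for Ehmt1, -0.90 for Ehmt2, -0.74 for Setdb1, -1.15 for Atf7ip, -1.22 for Trim28, -0.71 for Cbx1 and -1.13 for Cbx5. At 72 h they were -1.27 for Ehmt1, -1.10 for Ehmt2, -0.93 for Atf7ip, -1.16 for Trim28, -0.83 for Cbx1, -1.12 for Cbx5 and -0.34 for Suv39h1, and Setdb1 (-0.24, adjusted p = 0.0750) did not pass. What gave the libraries their different slopes was not tested.

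**Figure D3:**
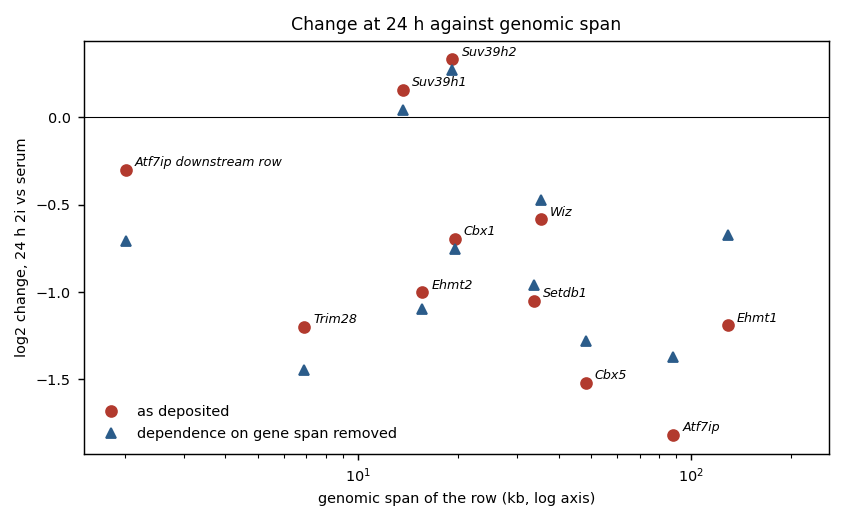
Change in RNA level from serum to 24 h (log2, vertical axis) against the genomic span of each row (kb, log axis), with circles for values as deposited and triangles after removal of the dependence on span. Ehmt1 moves from -1.19 to -0.67 and Trim28 from -1.20 to -1.44, and the 7 lower genes remain below 0.

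Other genes of the pathway were followed as a list of 22, of which 20 were tested. At 6 h 3 were lower and 1 higher, at 24 h 11 lower and 1 higher, and at 72 h 10 lower and 2 higher. Over all rows 6.48% were lower and 9.13% higher at 6 h, 29.1% and 34.2% at 24 h, and 26.5% and 25.7% at 72 h. Their median change was -0.46 at 24 h and -0.27 at 72 h. Prdm2, a PR-domain protein assigned to the H3K9 methyltransferases, fell by 2.06 at 24 h (adjusted p = 5.06e-05) and fell by 1.01 at 72 h (adjusted p = 0.00659). Over all settings tried, its change ran from -2.39 to -1.42 at 24 h and from -1.18 to -0.79 at 72 h. Prdm16, another PR-domain protein, is counted among the 2 higher at 72 h, but it passed the filter on low values only through libraries of 2i and is given as a description. It lay at -1.30 to -0.69 in serum and at 0.34, -0.16 and 0.34 at 72 h, a difference of 1.16, or of 0.50 with log2(value + 1). Setdb2, the relative of Setdb1, differed from serum by -0.24 at 24 h (adjusted p = 0.105) and by 0.17 at 72 h (adjusted p = 0.254). Of 10 tested H3K9 demethylases, which remove the mark, 7 were lower and 0 higher at 24 h, and 2 were lower and 0 higher at 72 h, with medians of -0.90 and -0.17. The share of all rows that were lower was 29.1% at 24 h and 26.5% at 72 h, so the count at 72 h was near that of all rows. All counts in this paragraph rest on levels as deposited, with the dependence on gene span left in.

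The tested rows whose levels followed Ehmt1 most closely over the 12 libraries were Rfx1, Ptpn14 and Sf3b3 (Pearson r = 0.995 each). For Ehmt2 they were Slc39a14 (r = 0.985), E2f4 (0.980) and Rgnef (0.978). A correlation above 0.9 was common, with 907 of 12305 rows for Ehmt1 and 205 for Ehmt2, and all points share the same 12 libraries and 4 groups.

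In serum, H3K9me2 over each of the 10 members lay below that of the median gene, lowest over Trim28 and Ehmt2. The value is the bound share of reads over the input share across the bins of a gene, so a value of 1 means the same share in both. Wiz measured 0.479 and 0.403 in the serum replicates, Ehmt1 0.487 and 0.459, and Atf7ip 0.416 and 0.402. Suv39h2 (0.310 ± 0.013), Setdb1 (0.333 and 0.296) and Suv39h1 (0.284 and 0.337) lay lower. Cbx1 (0.157 and 0.135), Cbx5 (0.126 and 0.140), Ehmt2 (0.078 and 0.056) and Trim28 (0.086 and 0.047) lay lowest. The median over all genes was 0.528 and 0.490, and over genes tested in RNA 0.310 and 0.288. Trim28, the member with the most RNA, and Ehmt2 thus lay within the lowest 5.32% of genes. Values are scaled to library depth, so a loss of the mark across the whole genome cannot be seen in them, and p-values leave out the error of the single input.

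At 24 h in 2i no member passed the test against serum over its gene, and 0 of the 21543 genes tested did (0%, limma), although 3465 had an unadjusted p under 0.05. With the input left out 483 genes were called, none of them a member. Changes of the members ran from -0.54 for Trim28 (SE 0.59) to 0.27 for Ehmt2 (SE 0.48). Ehmt1 measured 0.368 and 0.423, a change of -0.26 (SE 0.17, adjusted p = 0.508). The libraries of 24 h lay below both of serum in 3 of the 10 genes (30.5% of all genes) and above them in 1, Wiz (21.4%). The 7 members whose RNA was lower at 24 h changed by -0.54 to 0.27 in H3K9me2, with adjusted p of 0.381 or more.

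In LT2i H3K9me2 was lower over 9 of the 10 members, where 52.2% of all genes were lower and 6.87% higher, and 62.5% of the genes tested in RNA were lower. Wiz measured 0.173 and 0.134 (-1.53, SE 0.18, adjusted p = 0.00149), Cbx5 0.039 and 0.037 (-1.80, SE 0.30, adjusted p = 0.00411) and Setdb1 0.111 and 0.143 (-1.31, SE 0.21, adjusted p = 0.00355). Ehmt1 measured 0.304 and 0.232 (-0.83, SE 0.17, adjusted p = 0.00878) and Atf7ip 0.260 and 0.245 (-0.70, SE 0.13, adjusted p = 0.00551). Suv39h1 (-1.34), Cbx1 (-1.34) and Suv39h2 (-0.88) also fell. The LT2i libraries lay below both serum libraries in all 10 genes, where 68.0% of all genes did so. The exception to the test was Ehmt2, with 0.027 and 0.045 (-0.94, SE 0.48, adjusted p = 0.135). Ehmt2 passed with 10000 bases added on either side of the gene (-0.73, adjusted p = 0.0329) and with no input (-1.18, adjusted p = 0.0305).

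The depth behind these values differed between members. Ehmt1 rested on 688 and 624 bound reads in serum and 398 and 261 in LT2i, Ehmt2 on 16 and 11 against 4 and 6, and Trim28 on 8 and 4 against 1 and 1. For Trim28 the ratio of depth-scaled reads, LT2i to serum, was 0.186 with an exact 95% counting interval of 0.020 to 0.837, and for Ehmt2 it was 0.414 (0.179 to 0.883). For Ehmt1 it was 0.562 (0.511 to 0.617). Such intervals cover counting error only.

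The falls in LT2i have to be read against a shift of most genes. The median gene changed by -0.68 (log2), the median of the 11267 genes also tested in RNA by -0.95, and the median of the 10 members by -1.33. Relative to the median of genes tested in RNA, Trim28 lay at -0.89, Cbx5 at -0.85 and Wiz at -0.58, while Atf7ip (0.26), Ehmt1 (0.12), Suv39h2 (0.07) and Ehmt2 (0.01) lay at or above it. Relative to the median of all genes these values were -1.16, -1.12 and -0.85 for Trim28, Cbx5 and Wiz, and -0.02, -0.16 and -0.20 for Atf7ip, Ehmt1 and Suv39h2. Quantile normalization, which sets all libraries to the same distribution, moved the median gene to -0.01, and then 0 of the 10 members passed. In that fit 3825 genes were called, 54.1% of them lower, against 88.4% in the fit as deposited. Wiz was then at -0.47 (adjusted p = 0.0794), Cbx5 at -0.71 (adjusted p = 0.155) and Ehmt1 at 0.10 (adjusted p = 0.673). Like Ehmt1, Suv39h2 (0.20), Atf7ip (0.27) and Ehmt2 (0.10) turned to values above 0. Without serum replicate 1, 5 members passed, since the calls of Suv39h2, Ehmt1, Trim28 and Cbx1 were lost, and the call of Trim28 was lost when any 1 of the 6 bound libraries was left out. The call of Suv39h2 was also lost without serum replicate 2 or LT2i replicate 2. With the mean of log2 values over bins in place of summed reads, the median gene changed by -0.62, and Trim28 (-0.55, adjusted p = 0.0887) and Suv39h2 (-0.71, adjusted p = 0.0542) did not pass. In that fit Cbx5 changed by -0.92, Cbx1 by -0.83 and Suv39h1 by -0.82, and all 3 passed.

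Between 24 h and LT2i, a comparison added after the values were seen, 8 members were lower and 0 higher, where 50.0% of all genes were lower and 5.78% higher. Leaving out single libraries left 2 to 7 members called. Wiz (-1.70, adjusted p = 0.00164) and Cbx5 (-1.77, adjusted p = 0.00496) changed most among those that passed, and Ehmt2 (-1.21, adjusted p = 0.0729) and Trim28 (-1.30, adjusted p = 0.106) did not pass. The median gene changed by -0.64 and the median of genes tested in RNA by -0.91, of which 60.5% were lower. Under quantile normalization 1 member, Wiz, passed (-0.72, adjusted p = 0.0331), Suv39h2 (0.41), Ehmt1 (0.34), Atf7ip (0.45) and Setdb1 (0.24) turned to values above 0 that did not pass, and 51.5% of the calls were lower in place of 89.6%. With the mean of log2 values over bins Suv39h2 did not pass (-0.42, adjusted p = 0.197), Cbx1 was at -0.69 and Suv39h1 at -0.74, and Cbx5 fell by 1.00.

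**Figure D4:**
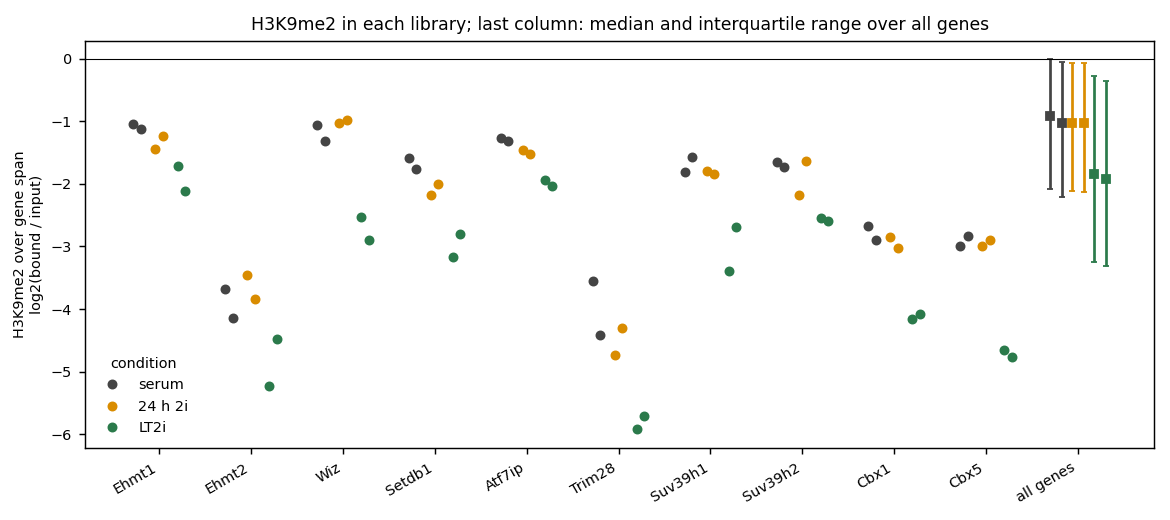
H3K9me2 over each gene as log2 of bound over input (vertical axis) in the 2 libraries of serum, 24 h in 2i and LT2i, with the median and interquartile range over all genes at the right. Serum and 24 h points lie closer together than either lies to LT2i for Wiz and Cbx5, the LT2i points of every member lie lower, and the median gene is lower in LT2i too.

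Within the genes the mark was not even. At Ehmt1, bins touching the start held 2 bound reads in each serum library beside 39 input reads, 0.053 as bound over input without added reads, against 0.483 ± 0.020 over the rest of the gene. In LT2i the rest of the gene held 0.277 ± 0.054, while the 30 kb on either side held 0.490 ± 0.015, beside 0.484 ± 0.015 in serum. Atf7ip was alike in that its flanks held 0.654 ± 0.009 in serum and 0.665 ± 0.064 in LT2i, while the gene fell from 0.410 ± 0.014 to 0.245 ± 0.004. The flanks of Setdb1 held 0.460 ± 0.021 in serum and 0.497 ± 0.107 in LT2i. At Wiz the flanks fell too, from 0.428 ± 0.050 to 0.184 ± 0.049, and the gene fell from 0.489 ± 0.070 to 0.152 ± 0.035. Flank means were also lower in LT2i than in serum at Suv39h2 (0.503 to 0.207), Suv39h1 (0.353 to 0.109), Ehmt2 (0.239 to 0.122), Trim28 (0.204 to 0.098), Cbx5 (0.177 to 0.116) and Cbx1 (0.133 to 0.045). These are descriptions without a test, and flanks can hold other genes.

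**Figure D5:**
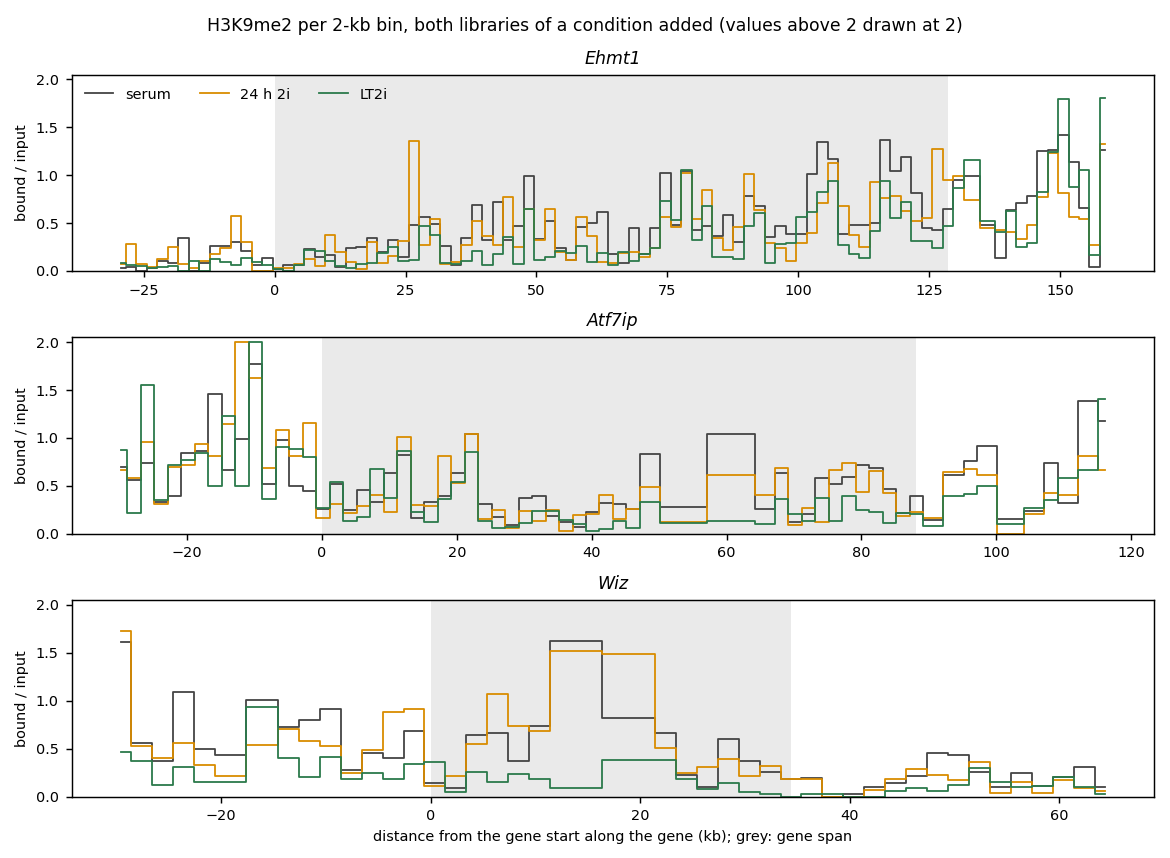
H3K9me2 as bound over input per 2-kb bin (vertical axis) along Ehmt1, Atf7ip and Wiz and 30 kb on either side, by distance from the gene start (kb), for serum, 24 h in 2i and LT2i with both libraries added. Steps widen where bins are not in the table. The start of Ehmt1 is near 0 in each condition, and over the middle of Wiz the LT2i line lies below the other lines.

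At the starts of the genes, in windows reaching 2000 bases on either side, few reads were bound. The windows held 0 to 24 bound reads per library in serum and at 24 h and 0 to 43 in LT2i. Of the 9 members with enough input reads, 0 passed at 24 h and 0 in LT2i, where 0.597% and 27.5% of 22459 windows passed, and the window of Setdb1 was not tested. Among the 9 tested, the start of Atf7ip was the fullest, at 0.376 and 0.445 in serum and 0.661 and 0.362 in LT2i, whereas the start of Ehmt1, with its 2 bound reads per library, was at 0.065 and 0.067 in serum. These values include the 0.5 reads added before the log. With the mean of log2 values over bins Ehmt1 alone of the members passed in LT2i, where 5808 of 22459 windows passed. With the mean of the 3 inputs Suv39h1 alone passed, where 5951 windows did.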

How the data were processed

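RNA-seq and H3K9me2 ChIP-seq tables of E14 cells were used, and bisulfite files (59 samples) were not used here. The RNA table, as the authors deposited it, holds log2 expression corrected for the length of each gene and for depth, with every library at the same upper quartile (2.51). For ChIP-seq they deposited log2 reads per 2000-base bin (GRCm38), scaled to the deepest library. The submitters' processing notes name Trim Galore 0.3.5, TopHat2 2.0.11, Bismark 0.12.3 and Bowtie2, without roles. RNA-seq libraries were made with a TruSeq v2 kit and ChIP-seq libraries with a MicroPlex v2 kit. The strand setting of the counting was not stated in the sources used here.

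Groups came from the sample labels. Nothing in the labels says that replicates were separate cultures. For its figure of expression in this transition the paper names 3 biological replicates. The p-values measure the spread between these libraries. Nothing in the labels pairs replicate numbers. Deviations of same-numbered RNA libraries from their group means correlated above 0.1 in every pair for serum with 6 h, serum with 24 h and 6 h with 72 h, and not in every pair for the other 3 pairs of groups. Differently numbered libraries correlated at up to 0.75, for 24 h replicate 1 with 72 h replicate 2. Libraries numbered 3 correlated with each other at 0.40 to 0.81 between all groups, so they shared part of their deviation. For numbers 1 and 2 the values do not show a pairing. The main fit leaves the replicate number out, and fits with it as a block were tried. The 10 members, gene lists and tests were chosen with earlier results of these data known. Named besides the members were the 3 closest profiles of Ehmt1 and Ehmt2, Cbx3, Setdb2 and pathway genes that passed with a change of 1 or more at 72 h.

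Rows at log2 0 or more in 3 of 12 libraries were fitted with limma 3.58.1 (R 4.3.3), 4 groups in one fit, eBayes with trend, Benjamini-Hochberg adjustment over 12306 rows and a threshold of 0.05. RNA read totals are unknown. Relative depth was 0.677 to 1.0 of the deepest library. ChIP values gave back whole reads (all within 2%), 14396552 to 23785128 per library. Reads were summed over the bins of a gene and given as log2 of bound over the condition's input, with 0.5 reads added, where inputs held 20 or more reads, and fitted with limma over the 6 bound libraries. The fits were also run on simulated data, and the outcome is not given here. Other normalizations, filters, replicate blocks, leaving out libraries and removal of a spline on gene span (5 degrees of freedom) were tried. Leaving out the 3 libraries of steep span slope, and the comparison of LT2i with 24 h, were added after the data were seen. The 12 RNA-seq and 9 ChIP-seq libraries are 21 of 80 samples. Figures used Python 3.11.15 and matplotlib 3.10.9.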

Additional observations from a re-analysis of the deposited data

Results flagged for a closer look

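Changes that differed between time points, by a test of the difference itself, were singled out. From 6 to 24 h the RNA of Atf7ip (-1.86), Cbx5 (-1.57), Setdb1 (-1.09), Ehmt1 (-1.03), Trim28 (-0.94) and Cbx1 (-0.57) fell and that of Suv39h2 (0.34) rose (log2, limma over all 12 libraries). From 24 to 72 h Setdb1 rose by 0.66, while Suv39h1 (-0.52) and Suv39h2 (-0.45) fell. Both changes of Suv39h2 lost the threshold without 24 h replicate 1 (0.22 and -0.32) and without 24 h replicate 2 (0.32 and -0.43), and the first was lost without any other single library except 24 h replicate 3. The second was also lost without 72 h replicate 2 (adjusted p = 0.0526) or 3 (adjusted p = 0.0772), with only the 6 libraries compared (adjusted p = 0.132) and without the 3 libraries of steep span slope (-0.12, adjusted p = 0.575).

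For H3K9me2 over genes, LT2i was compared with 24 h in 2i after the values had been seen, and 8 of the 10 members were lower (50.0% of all genes were). They were Cbx5 (-1.77), Wiz (-1.70), Suv39h1 (-1.22), Cbx1 (-1.19), Setdb1 (-0.89), Suv39h2 (-0.66), Ehmt1 (-0.57) and Atf7ip (-0.50), beside a median of -0.64 over all genes and of -0.91 over genes tested in RNA, so Setdb1, Suv39h2, Ehmt1 and Atf7ip fell by no more than the latter. Ehmt2 and Trim28 did not pass. Without 24 h replicate 1, 4 were lower past the threshold, without 24 h replicate 2, 2 were, and without LT2i replicate 2, 5 were.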

How the results depend on the processing

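Of the members' RNA changes recomputed under the alternatives, 639 kept their direction and side of the threshold, 51 lost the threshold, 13 gained it and 1 turned sign. Ehmt2 was the only member included at 6 h. Many alternatives cannot alter a log2 change, so its direction was fixed there. These were other filters, the block, eBayes without trend, a minimum change, fits of only the compared libraries and omission of another group's library. A minimum absolute change of 1 left 0 members called at 6 h, 4 from 6 to 24 h and 0 from 24 to 72 h, and fitting only the 6 libraries compared left 1 from 24 to 72 h. Without single libraries, 7 to 9 members were called at 24 h, 6 to 9 at 72 h, 6 to 8 from 6 to 24 h and 2 to 5 from 24 to 72 h. Without the 3 libraries of steep span slope, the 24 h changes of Wiz (0.028), the downstream Atf7ip row (0.040) and Cbx3 (-0.10) turned sign. Cbx3 did so too under quantile normalization (-0.051) and with the span trend removed (-0.11), and ran from -0.072 to 0.071 without single libraries, below 0 without 24 h replicate 1 or serum replicate 3.

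For H3K9me2 over genes, quantile normalization left 0 members called in LT2i against serum and 1 against 24 h. It turned Suv39h2 (0.20 and 0.41), Ehmt1 (0.10 and 0.34) and Atf7ip (0.27 and 0.45) in these comparisons, Ehmt2 (0.10) in the first and Setdb1 (0.24) in the second. Single libraries left 5 to 8 and 2 to 7 members called. At gene starts, 1 member was called in LT2i with mean log2 values over bins, with the mean of the inputs, and without LT2i replicate 1 (0 to 1 over single libraries). Windows with 100 or more input reads held no member's start.

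Over all RNA rows, the minimum change cut the calls from 1920 to 652 at 6 h, 7786 to 3378 at 24 h, 6429 to 2579 at 72 h, 7314 to 2713 from 6 to 24 h and 3886 to 1174 from 24 to 72 h. Fitting only the libraries compared gave 3585 at 6 h and 1587 from 24 to 72 h, leaving out the steep libraries 3320 and 2448, and a stricter filter 1182 and 2547. Single libraries gave down to 1230 at 6 h and 2427 to 6692 from 24 to 72 h. For H3K9me2 over genes, quantile normalization gave 97 calls at 24 h in place of 0, 3825 in LT2i in place of 12728 and 3170 against 24 h in place of 12012. Among gene-start calls in LT2i 53.8% were lower under quantile normalization, in place of 82.1%. Calls over genes at 24 h were 483 with no input, 54 with 10000 bases added and 4 with 100 or more input reads. At starts, calls in LT2i (6185) ran from 2308 to 3805 under 5 settings, and calls at 24 h (134) from 0 to 396.

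Correlations did not settle whether replicate numbers 1 and 2 pair the RNA libraries. Libraries numbered 3 correlated with each other at 0.40 to 0.81 between all groups. Over all same-numbered libraries the correlations ran from -0.25 to 0.81, and over differently numbered libraries from -0.86 to 0.75. Of 12 libraries 7 correlated best with their own number. Serum replicate 2 correlated at 0.34 with 24 h replicate 1 and at 0.11 with 24 h replicate 2. Same-numbered ChIP libraries correlated at 0.051 at most. With the replicate block, 9 members were called at 24 h, 9 at 72 h and 9 from 6 to 24 h, with 1 at 6 h and 4 from 24 to 72 h. Of all 12306 rows, the block called 8739, 7498, 8393, 2569 and 5791 in the same order. It gave adjusted p of 0.0172 and 0.0305 for Wiz at 24 and 72 h, 0.0110 for Setdb1 at 72 h and 0.0412 for Ehmt2 from 6 to 24 h. In H3K9me2 it called 8 members in LT2i, without Trim28, and 7 against 24 h, where it called 12690 and 11841 of 21543 genes. Low read numbers limit H3K9me2 over Trim28 and Ehmt2 and at gene starts.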
